A study of Mus musculus with 29 samples.

Results

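Hippocampal RNA from obese mice that fasted every other day on high-fat diet was compared with hippocampal RNA from obese mice that ate the same diet without restriction. The comparison used 8 of the 29 libraries of the study, 4 labelled HFD and 4 labelled HFD-IF, and 12798 of its 24346 gene rows. A gene was kept when its mean over the 8 libraries was at least 1 FPKM (fragments per kilobase of transcript and per unit of library depth) and when it was not a small nucleolar RNA or microRNA gene. The study sequenced polyadenylated RNA of liver and hippocampus, and its title names succinate and the effects of fasting on the brain in diet-induced obesity. All mice were male C57BL/6J animals made obese by 10 weeks of high-fat diet, so the HFD controls, the HFD-IF mice and both chow groups share that history. For the next 4 weeks the HFD group stayed on high-fat diet ad libitum, the HFD-IF group had high-fat diet with fasting on alternate days, the CC group (4 hippocampal libraries) had control chow ad libitum, and the CC-IF group (3 hippocampal libraries) had control chow with intermittent fasting. The labels call the samples of a group biological replicates. The sources used here do not give whether the mice were fed or fasted when the tissue was taken, or at what hour. Each library is called by its column's index, which starts at 0.

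The hippocampus is a layered structure of the forebrain in which granule cells of the dentate gyrus and pyramidal cells of the CA fields form the circuit for spatial and episodic memory. It borders the ventricle, where the choroid plexus makes cerebrospinal fluid, and it is covered by the leptomeninges, whose fibroblasts make collagen, proteoglycans and retinoic acid. Fasting changes glucose, ketone bodies, glucocorticoids, body temperature and the timing of feeding, and the brain has known transcriptional responses to each of these.

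The tissue label was checked with 6 hippocampal markers. Over the 8 libraries Prox1 of dentate granule cells lay between 21.1 and 34.4 FPKM and Wfs1 of CA1 between 22.3 and 39.3 FPKM. Grik4 of CA3 lay between 14.6 and 17.8 FPKM, and Nrgn, a postsynaptic calmodulin-binding protein, between 883 and 1235 FPKM. None of the 6 separated the groups. Depth, read from low values as whole fragments, was about 11800000 to 20600000 fragments in the 8 libraries, and each held 17160 to 17614 genes above 0. Pairs of libraries of 1 group had Pearson's r of 0.97 to 0.98 across genes, and pairs of an HFD and an HFD-IF library 0.96 to 0.99. Rn45s, the ribosomal RNA precursor, was listed at 25521 and 29309 FPKM in HFD libraries 0 and 2 and at 27928 FPKM in HFD-IF library 2, and at 0 in the other 5, where a 0 may be a failed estimate. Choroid plexus genes were high in HFD libraries 0, 2 and 3 and in HFD-IF library 0. Because the tissue is bulk, fewer cells of a type and less RNA per cell cannot be told apart.

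No gene passed the threshold between HFD-IF and HFD hippocampus, and the genes nearest to it were mostly lower after fasting. They were Hspb8, a small heat shock protein, Ogn, Fmod and Ptgds, which mark leptomeningeal fibroblasts, Cd74, the invariant chain of MHC class II, and, on the higher side, Tmem192, a lysosomal membrane protein. Each of these 6 had an adjusted p of 0.0826 in limma with the Benjamini-Hochberg method, fitted on log2(FPKM + 1). In limma 0 of 12798 genes passed an adjusted p of 0.05, and 614 higher (4.8%) and 338 lower (2.64%) had an unadjusted p under 0.05. The 4 and 4 libraries did not overlap in 291 genes that were higher (2.27%) and 131 that were lower (1.02%). A limma fit on the 8 libraries alone called 2 genes, Slc13a4 and Cd74, both lower (adjusted p = 0.0201; 0.0156% of genes), with 348 higher (2.72%) and 263 lower (2.06%) at an unadjusted p under 0.05.

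The sign of small differences depended on how libraries were scaled. The median log2 change over all genes was 0.04, and 65.3% of genes were above 0. After each library was rescaled by median ratio the median was 0.00, and 330 genes were higher and 593 lower at an unadjusted p under 0.05. With quantile normalisation these were 427 and 526. With single libraries left out 421 to 965 genes were higher and 256 to 426 lower at that p. The counts were 431 and 246 without the libraries with Rn45s above 0. They were 281 and 270 with the summed choroid plexus level as a covariate. Backgrounds given below are those of the fit with all libraries. Log2 changes are differences on log2(FPKM + 1), which understate the change of genes at low FPKM, and the error after ± is the standard error for a log2 change and the SD (n = 4) for FPKM.

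**Figure D1:**
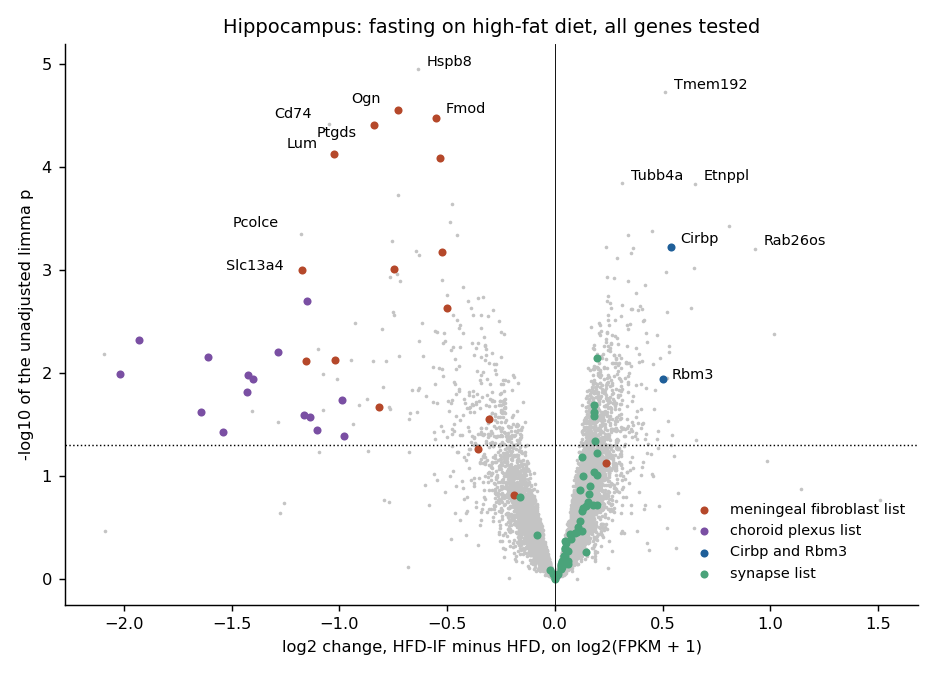
Each point is 1 gene, with the log2 change (HFD-IF minus HFD) on the horizontal axis and -log10 of the unadjusted limma p on the vertical axis. Genes above the dotted line had an unadjusted p under 0.05. 4 genes beyond 2.5 on either side are not drawn, and 15 of 16 meningeal genes (red) lie on the lower side, while Cirbp, Rbm3 and 45 of 50 synapse genes (green) lie on the higher side.

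Genes of leptomeningeal fibroblasts were lower in the fasted hippocampus as a group. Of 16 kept members of a list of 20, 15 had a log2 change below 0 (background 34.7%), 13 were lower at an unadjusted p under 0.05 (background 2.64%) and 11 had no overlap between the groups (background 1.02%). The median log2 change of the 16 was -0.64, against 0.04 over all genes, and 0 members passed the adjusted threshold. Ogn, Fmod and Lum passed the filter only through the HFD group. Of the 13 members with a mean of at least 1 FPKM in both groups, 10 were lower at an unadjusted p under 0.05 and 8 did not overlap. The 4 members below the filter, Col3a1, Slc22a6, Crabp2 and Slc47a1, also had lower means in HFD-IF.

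Ptgds makes prostaglandin D2 and is among the most abundant transcripts of the leptomeninges, with further expression in choroid plexus and oligodendrocytes (chromosome 2, 25466709 to 25470046 in GRCm38). It measured 499, 558, 436 and 328 FPKM in HFD libraries 0, 1, 2 and 3, and 274, 234, 203 and 296 FPKM in the HFD-IF libraries. The lowest HFD library was above the highest HFD-IF library. The means were 455 ± 98.4 and 252 ± 41.4 FPKM, and the log2 change was -0.84 ± 0.15 (limma, adjusted p = 0.0826). Without HFD library 3 the change was -0.99 and passed in limma (adjusted p = 0.0269).

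Small leucine-rich proteoglycans, which bind collagen fibrils in the extracellular matrix, were among the members. Lum, lumican (chromosome 10, 97565128 to 97572703), measured 3.13, 1.59, 1.72 and 2.28 FPKM in HFD and 0.819, 0.368, 0.168 and 0.91 FPKM in HFD-IF. Ogn, osteoglycin (chromosome 13, 49608046 to 49624501), measured 1.4, 2.39, 1.86 and 1.79 FPKM in HFD and 1.08, 0.414, 0.709 and 0.724 FPKM in HFD-IF. Fmod, fibromodulin (chromosome 1, 134037254 to 134048277), measured 1.76, 1.85, 2.06 and 1.99 FPKM in HFD and 1.11, 1.2, 0.721 and 0.956 FPKM in HFD-IF. Every HFD library was above every HFD-IF library for the 3 genes, at levels near 1 FPKM. Their log2 changes were -1.03 ± 0.20, -0.73 ± 0.13 and -0.55 ± 0.10, with adjusted p = 0.131, 0.0826 and 0.0826 in limma.

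The fibrillar collagen gene Col1a2 (chromosome 6, 4504814 to 4541544) measured 3.21, 2.62, 2.72 and 2.22 FPKM in HFD and 1.61, 1.71, 1.39 and 1.49 FPKM in HFD-IF, again with no overlap (-0.53 ± 0.10; limma, adjusted p = 0.131). Col1a1 was also lower without overlap, with means of 2.16 ± 0.455 and 1.19 ± 0.207 FPKM. Slc13a4, a sulfate transporter of leptomeninges and choroid plexus (chromosome 6, 35267957 to 35308131), measured 5.24, 3.16, 4.65 and 5.48 FPKM in HFD against 1.47, 1.58, 1.23 and 1.57 FPKM in HFD-IF. Its groups did not overlap, and its log2 change of -1.18 ± 0.29 had an adjusted p of 0.408 in limma over the 4 hippocampal groups. CC library 2 and CC-IF library 2 were high as well (5.66 and 3.56 FPKM). The growth factor Igf2 had means of 18.1 ± 5.77 and 8.02 ± 0.658 FPKM, and Igfbp2, which binds insulin-like growth factors, 16.1 ± 5.76 and 6.43 ± 1.33 FPKM. Both were without overlap, and both were also high in CC library 2 (23.3 and 29.2 FPKM). Pcolce, which assists collagen processing and is not a member, had 2.3 to 6.81 FPKM in HFD and 1.13 to 1.32 FPKM in HFD-IF (-1.18 ± 0.27; limma, adjusted p = 0.327).

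**Figure D2:**
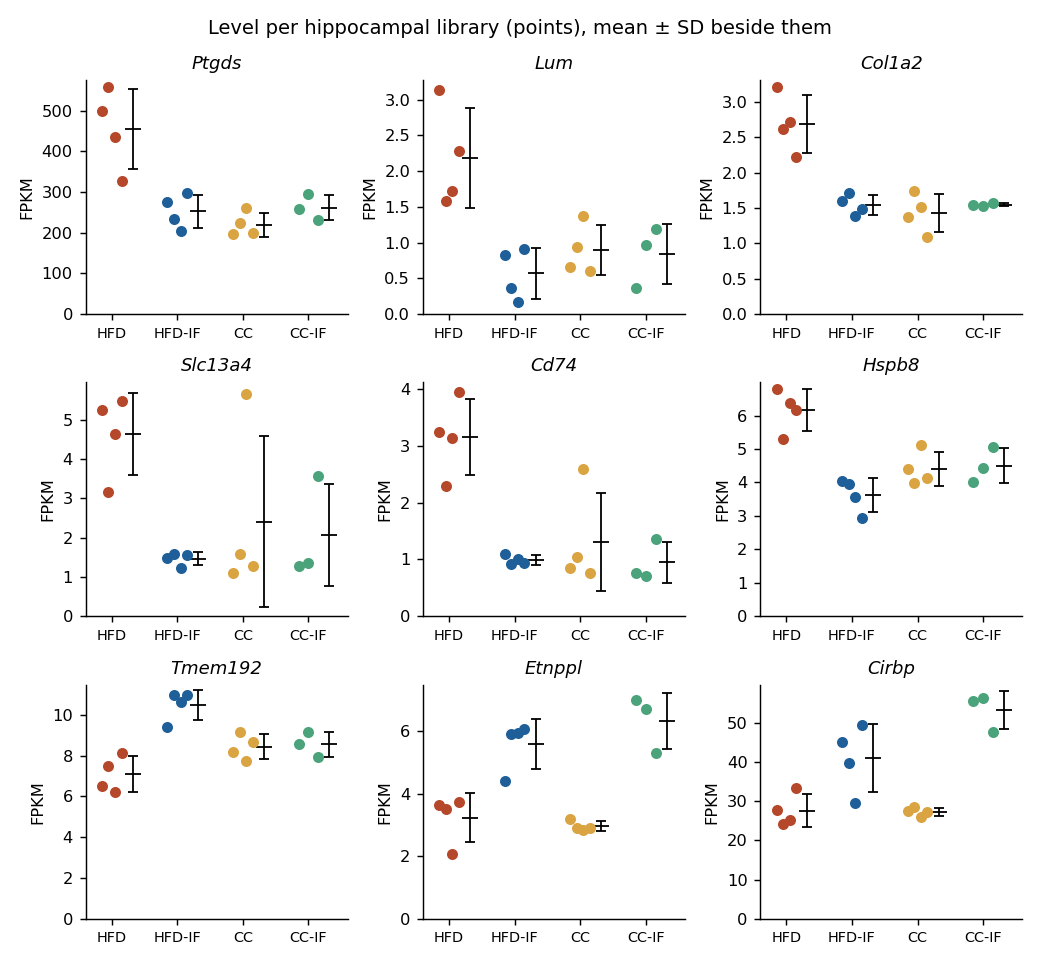
FPKM of 9 genes (vertical axes) in each hippocampal library of the 4 groups, with points for libraries and bars for the mean ± SD beside them. For Ptgds, Lum, Col1a2, Slc13a4, Cd74 and Hspb8 the 4 HFD libraries sit above the 4 HFD-IF libraries, for Tmem192 and Etnppl they sit below, and for Cirbp the groups overlap.

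Against the chow groups the meningeal members did not all behave alike. For 5 of the 16 kept members, Ptgds, Lum, Fmod, Col1a1 and Col1a2, each HFD library was above all 11 other hippocampal libraries. The summed FPKM of the list was 473 to 682 in HFD, 304 to 423 in HFD-IF, 301 to 420 in CC and 353 to 415 in CC-IF, but Ptgds made up most of that sum. Without Ptgds it was 167.6, 124.5, 155.4 and 145.8 FPKM in HFD libraries 0 to 3 and 114.3, 109.7, 100.7 and 126.7 FPKM in HFD-IF libraries 0 to 3. HFD library 1 then lay below HFD-IF library 3, and CC library 2 (159.8 FPKM) lay above 3 of the HFD libraries. Fasting on chow gave a median log2 change of -0.03 for the 16 genes. Under an unadjusted p of 0.05, 9 of the 16 differed between the diets in their fasting change (background 3.35%). None did after adjustment (smallest adjusted p = 0.985 in limma). The 16 include Ogn, Fmod and Lum, which passed the filter only through HFD.

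Choroid plexus genes were also lower on average, but through some of the libraries. Of 17 kept members of 20, 16 were lower at an unadjusted p under 0.05 (background 2.64%), the median log2 change was -1.40, and 1 member (Calml4) had no overlap. Of the 8 members with a mean of at least 1 FPKM in both groups 7 were lower at that p. Ttr, transthyretin, the most abundant secreted product of the plexus (chromosome 18, 20665280 to 20674321), was listed at 1744, 33.5, 1372 and 1246 FPKM in HFD libraries 0 to 3 and at 320, 28.8, 7.48 and 17.0 FPKM in HFD-IF libraries 0 to 3. HFD library 1 thus lay within the HFD-IF range. Kl, which encodes klotho, showed the same split, with 19.2, 6.22, 19.2 and 16 FPKM in HFD and 7.83, 5.44, 3.47 and 4.61 FPKM in HFD-IF. The list summed to 2075, 85.1, 1644 and 1506 FPKM in HFD and to 427, 81.2, 48.9 and 64.3 FPKM in HFD-IF, and the other 9 members passed the filter only through HFD. On chow 1 library of each group was high too, CC library 2 (1930 FPKM) and CC-IF library 2 (1153 FPKM), with the other chow libraries at 57.3 to 149 FPKM. The count of 16 was 9, 9 and 8 without HFD libraries 0, 2 and 3 and 9 without HFD-IF library 2, and 0 without the libraries with Rn45s above 0.

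The summed level of the meningeal members other than Ptgds was highest in the 4 libraries where choroid plexus genes were highest. Without Ptgds the 4 highest meningeal sums, 145.8 to 167.6 FPKM, were in HFD libraries 0, 2 and 3 and CC library 2, which also had the 4 highest choroid plexus sums, 1506 to 2075 FPKM. The sums are not fully separate, because the meningeal one includes Slc13a4, which choroid plexus also makes. Slc13a4 and the member Igfbp2 were themselves high in CC library 2. CC-IF library 2 had a choroid plexus sum of 1153 FPKM and a meningeal sum without Ptgds of 122.3 FPKM. That was the highest of the CC-IF group (94.9 and 119.6 FPKM in libraries 0 and 1). It was below HFD library 1 (124.5 FPKM) and HFD-IF library 3 (126.7 FPKM), whose choroid plexus sums were 85.1 and 64.3 FPKM. Ptgds itself was highest in HFD library 1 (558 FPKM), where the choroid plexus sum was 85.1 FPKM, and it was 260 FPKM in CC library 2. With the choroid plexus level as a covariate 9 of the 16 members were lower at an unadjusted p under 0.05 and their median was -0.53. The choroid plexus list had a median of -0.18, which follows from using its own summed level as the covariate. Leaving out the 6 hippocampal libraries whose choroid plexus sum was over 400 FPKM keeps only library 1 of the HFD group, whose spread is then taken from the other groups, and the meningeal median was -0.55. How much meningeal or choroid plexus tissue each dissection carried is not stated in the labels, and its part in these differences was not tested.

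**Figure D3:**
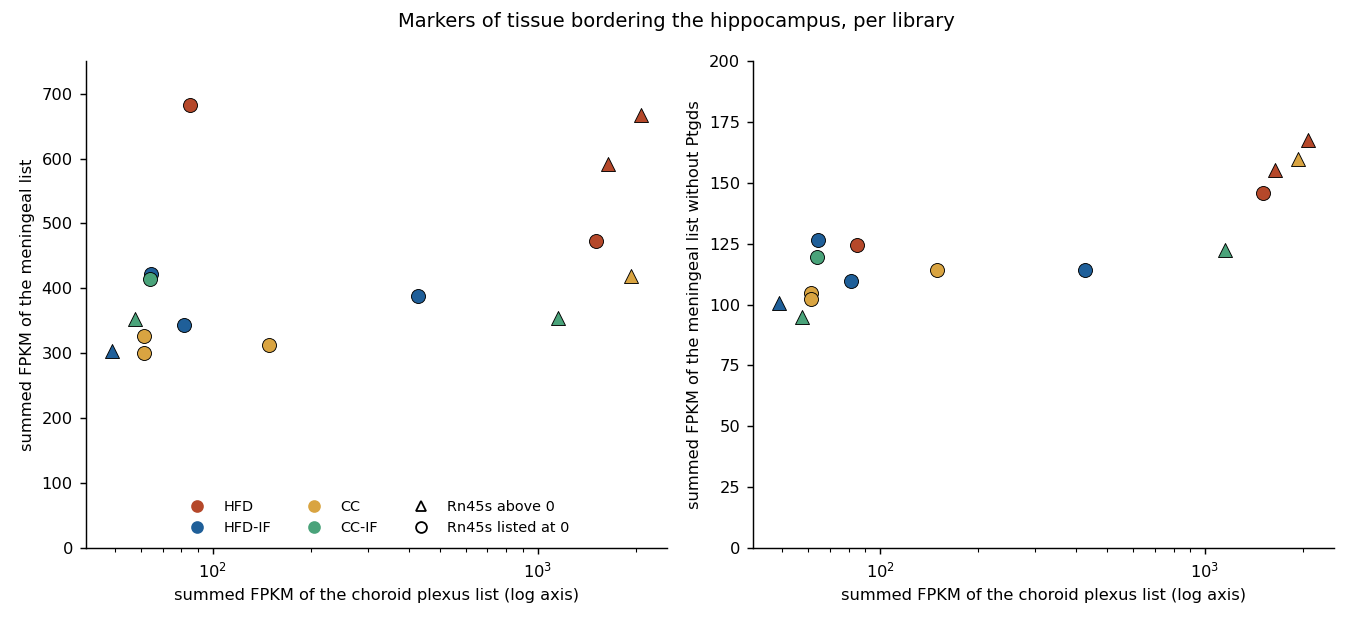
Summed FPKM of the meningeal list (left, vertical axis) and of the same list without Ptgds (right, vertical axis) against that of the choroid plexus list (horizontal log axes) in 15 hippocampal libraries, coloured by group, with triangles where Rn45s was above 0. The 4 HFD libraries are the highest on the left (473 to 682 FPKM), and on the right HFD library 1 (124.5 FPKM) lies among the other groups while the 4 libraries highest in choroid plexus genes are at the top.

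Cd74 and the MHC class II genes H2-Aa, H2-Ab1 and H2-Eb1 had lower means in the fasted hippocampus, at low levels. Cd74 (chromosome 18, 60803848 to 60812652) measured 3.23, 2.29, 3.14 and 3.94 FPKM in HFD and 1.09, 0.912, 1.01 and 0.932 FPKM in HFD-IF. The groups were wide apart, with a log2 change of -1.05 ± 0.19 (limma, adjusted p = 0.0826 over 4 groups and 0.0201 over the 8 libraries), and its HFD-IF mean of 0.987 FPKM means that it passed the filter only through HFD. On chow Cd74 was at 0.715 to 2.6 FPKM, with the highest value in CC library 2. The MHC class II chains H2-Aa, H2-Ab1 and H2-Eb1 fell below the filter on low values and had means of 1.61, 1.53 and 0.83 FPKM in HFD and 0.315, 0.338 and 0.293 FPKM in HFD-IF. None of the 3 overlapped between the groups. With no filter on low values H2-Aa passed (-0.98; limma, adjusted p = 0.0181), as did Arhgef5, a guanine nucleotide exchange factor (-0.34; limma, adjusted p = 0.0181), and both are named after their values were seen. Of 17 listed genes of border macrophages and antigen presentation 6 were kept, and of the 5 with a mean of at least 1 FPKM in both groups 1, Spp1, was lower at an unadjusted p under 0.05 (background 2.64%). Microglia, the resident macrophages of the parenchyma, had a median of -0.08 over 19 genes, with 1 lower at an unadjusted p under 0.05 (background 2.64%).

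Some vessel and blood genes had lower levels after fasting. Vtn, vitronectin, which pericytes make, was at 26.8, 25.5, 22.5 and 25.7 FPKM in HFD and at 16.6, 20.0, 13.7 and 21.2 FPKM in HFD-IF, without overlap (-0.49 ± 0.11; limma, adjusted p = 0.327). Kdr, a receptor for vascular endothelial growth factor, had means of 1.89 ± 0.233 and 1.27 ± 0.125 FPKM, also without overlap. The lists of 18 endothelial and 8 mural genes had medians of -0.05 and -0.09, with 2 members of each lower at an unadjusted p under 0.05 (background 2.64%) and 1 endothelial gene higher (background 4.8%). The beta-globin gene Hbb-b2, which shares near-identical sequence with other globin genes, had 3.09, 6.77, 2.63 and 5.66 FPKM in HFD and 0.808, 1.16, 4.03 and 1.99 FPKM in HFD-IF. HFD-IF library 2 was within the HFD range, and without the libraries with Rn45s above 0 the gene passed (-1.66; limma, adjusted p = 0.00676). Spp1, osteopontin, had no overlap, at 1.74 ± 0.456 and 1.11 ± 0.208 FPKM.

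Chaperone genes had lower means after fasting, and Hspb8 was nearest to the threshold. Hspb8 works with the co-chaperone Bag3 in clearing misfolded proteins (chromosome 5, 116408491 to 116422864), and it measured 6.8, 5.3, 6.38 and 6.17 FPKM in HFD and 4.05, 3.95, 3.55 and 2.93 FPKM in HFD-IF. The groups did not overlap, and the log2 change was -0.64 ± 0.10 (limma, adjusted p = 0.0826). Hspa8, the constitutive Hsc70 chaperone, was at 477, 611, 520 and 561 FPKM in HFD and 440, 468, 473 and 458 FPKM in HFD-IF, with no overlap and a log2 change of -0.23 ± 0.08. Hspb1, another small heat shock protein, had means of 11.3 ± 3.92 and 5.81 ± 3.36 FPKM. All 17 members of the heat shock list had a log2 change below 0 (background 34.7%), with a median of -0.09 and 3 lower at an unadjusted p under 0.05 (background 2.64%), and with quantile normalisation or without some of the libraries up to 4 were above 0. The median was -0.0569 without HFD library 1, -0.178 without HFD library 0 and -0.173 without HFD-IF library 2. It was -0.221 without the libraries with Rn45s above 0, with 7 members lower at that p. Over all genes 246 were lower in that setting, against 338 with all libraries. The endoplasmic reticulum chaperones Calr and Pdia3 were lower by log2 changes of -0.24 ± 0.10 and -0.20 ± 0.09 (limma, adjusted p = 0.616 and 0.643). Of 20 genes of the unfolded protein response 14 were below 0 (background 34.7%) and these 2 were lower at an unadjusted p under 0.05 (background 2.64%). That count was 0 without HFD library 1, HFD library 2 or HFD-IF library 0, 1 without HFD-IF library 3, and 5 without HFD library 0, HFD library 3 or HFD-IF library 2.

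On the higher side, Tmem192 led. It measured 6.51, 7.5, 6.24 and 8.13 FPKM in HFD and 9.41, 11, 10.6 and 10.9 FPKM in HFD-IF (chromosome 8, 64947185 to 64969033). The lowest fasted library exceeded the highest HFD library, with a log2 change of 0.51 ± 0.09 (limma, adjusted p = 0.0826), and without HFD library 3 it passed in limma at 0.57 (adjusted p = 0.0466). Chow libraries were at 7.73 to 9.17 FPKM, below every HFD-IF library and overlapping the HFD range. Etnppl, an astrocyte-enriched enzyme that breaks down phosphoethanolamine (chromosome 3, 130617448 to 130637521), measured 3.65, 3.5, 2.06 and 3.75 FPKM in HFD and 4.41, 5.92, 5.95 and 6.08 FPKM in HFD-IF. Its groups did not overlap (0.65 ± 0.13; limma, adjusted p = 0.187). On chow it was at 2.85 to 3.2 FPKM without fasting and at 5.31 to 6.99 FPKM with it.

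Several neuronal and cytoskeletal genes were higher by small amounts without overlap. Tubb4a, a brain beta-tubulin, was at 235, 221, 229 and 233 FPKM in HFD and at 272, 277, 313 and 280 FPKM in HFD-IF (0.31 ± 0.06; limma, adjusted p = 0.187). Kcnk3, a leak potassium channel, had 2.97 ± 0.257 and 4.47 ± 0.839 FPKM. Adam23, which anchors secreted LGI proteins at synapses, had 25.9 ± 0.824 and 30.8 ± 1.26 FPKM. Nkain1, a partner of the sodium pump, Pgap2, which remodels glycolipid anchors, Cep131, a centriolar protein, and Trerf1, a transcriptional regulator, had log2 changes of 0.24 to 0.36. Rab26os, annotated as antisense to Rab26 (chromosome 17, 24528248 to 24528744), had means of 10.6 ± 3.78 and 20.3 ± 3.59 FPKM (0.93 ± 0.22; limma, adjusted p = 0.333). The libraries kept strand, but how the authors counted it is not given, so its reads may include those of its partner. Among genes that were lower without overlap, Perp of desmosomes had -0.73 ± 0.15, Gng5, a G protein gamma subunit, -0.48 ± 0.10, and Cdkn1c, a cell cycle inhibitor, -1.08 ± 0.37. Fgf22, a synaptic organiser, had -1.1 ± 0.35, and -0.69 without HFD library 0, where it measured 6.16 FPKM.

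**Figure D4:**
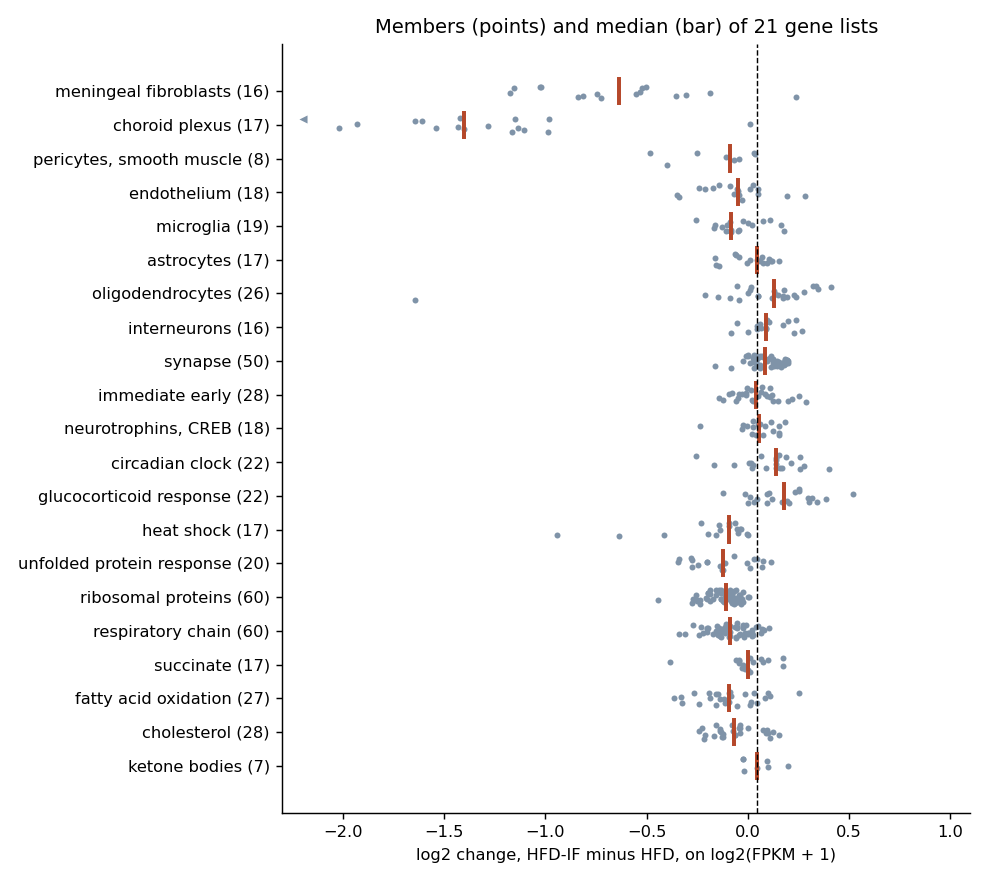
Log2 change of each kept member (points) and the median (red bar) for 21 gene lists, on log2(FPKM + 1), with the median of all genes (0.04) as a dashed line. 1 choroid plexus gene beyond the left edge is drawn as a triangle. The meningeal (-0.64) and choroid plexus (-1.40) medians lie far from the others drawn, all of which are within 0.2 of 0. Lists not drawn include the pair Cirbp and Rbm3 (median 0.52) and 5 blood genes (median -0.36).

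Cold-inducible RNA-binding proteins were higher in the fasted hippocampus. Cirbp and Rbm3 bind RNA, are known to be induced by mild cooling, and the latter has been tied to synapse maintenance. Cirbp (chromosome 10, 80165985 to 80172786) measured 27.8, 24.1, 25.1 and 33.3 FPKM in HFD and 45.1, 39.8, 29.6 and 49.5 FPKM in HFD-IF. Rbm3 measured 37.7, 30.7, 33.5 and 45.2 FPKM in HFD and 57.8, 62.8, 31.9 and 62.3 FPKM in HFD-IF. For both genes HFD-IF library 2 fell inside the HFD range and the other 3 fasted libraries lay above it. The log2 changes were 0.54 ± 0.13 and 0.50 ± 0.18 (limma, adjusted p = 0.333 and 0.595).

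Clock genes were mostly higher, by small amounts. Of 22 genes, 19 had a log2 change above 0 (background 65.3%), 4 were higher at an unadjusted p under 0.05 (background 4.8%) and 1, Nfil3, was lower. The median was 0.14, and all 10 repressors of the loop were above 0, with a median of 0.17. After rescaling by median ratio the list median was 0.10 and 15 were above 0. With the choroid plexus level as a covariate it was 0.0563, with 2 higher and 2 lower at an unadjusted p under 0.05. Without the libraries with Rn45s above 0 it was 0.102, with 2 higher. When single libraries were left out it was 0.0888 to 0.183, with 3 to 6 higher. Nr1d1, the haem receptor that represses Bmal1, measured 30.9, 26.3, 30.7 and 35.8 FPKM in HFD and 38.4, 37.9, 35.1 and 36.6 FPKM in HFD-IF. Per1, a core repressor, measured 15.1, 16.7, 14.9 and 17.7 FPKM in HFD and 15.4, 21.1, 22.2 and 20.9 FPKM in HFD-IF, so HFD-IF library 0 stayed with the HFD libraries. Dbp, an output transcription factor (chromosome 7, 45705088 to 45710203), had 11.2 to 14.9 FPKM in HFD and 15.4 to 16.8 FPKM in HFD-IF without overlap. The log2 changes of Nr1d1, Per1 and Dbp were 0.26 ± 0.08, 0.28 ± 0.09 and 0.26 ± 0.09, with adjusted p = 0.562, 0.565 and 0.602 in limma. Ciart, a repressor of the CLOCK and BMAL1 complex, had means of 3.69 ± 1.31 and 5.1 ± 1.15 FPKM, with overlap.

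CLOCK and BMAL1 bind the E-box CACGTG, a palindrome that reads the same on both strands. In RefSeq promoter windows of GRCm38.p6, each from 250 bases before to 50 bases after a start, 7.15% of 32851 windows held it. By gene the share was 8.09%, and among immediate early genes with a window it was 4 of 21. Among the clock genes with a window it was 5 of 19 (Per1, Cry1, Ciart, Bhlhe41 and Tef). Per1 and Ciart both held an E-box and were among the 4 clock genes that were higher at an unadjusted p under 0.05. Nr1d1 and Dbp, also among these 4, were not among the 5 with an E-box. The windows of Per1 (plus strand, chr11:69098699-69098998, the one of its windows with an E-box) and Ciart (minus strand, chr3:95882179-95882478) are shown, with E-boxes in capitals.
Per1: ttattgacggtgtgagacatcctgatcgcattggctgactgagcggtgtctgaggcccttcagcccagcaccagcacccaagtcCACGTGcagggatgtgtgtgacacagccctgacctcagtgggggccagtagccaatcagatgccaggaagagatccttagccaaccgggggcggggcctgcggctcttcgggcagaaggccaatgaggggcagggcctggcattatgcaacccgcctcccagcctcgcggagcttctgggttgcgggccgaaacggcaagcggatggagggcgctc
Ciart: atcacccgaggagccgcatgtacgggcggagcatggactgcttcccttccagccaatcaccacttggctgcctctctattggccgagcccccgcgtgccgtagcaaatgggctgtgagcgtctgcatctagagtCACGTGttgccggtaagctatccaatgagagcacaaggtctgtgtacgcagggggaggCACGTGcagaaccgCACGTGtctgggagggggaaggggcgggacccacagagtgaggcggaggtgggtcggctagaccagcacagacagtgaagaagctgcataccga
Per1 held 1 E-box, whose first base is base 85 of the window, and Ciart held 3. A match marks these letters and not a bound site.

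Glucocorticoid-responsive genes mostly had higher means, to an extent that depended on the libraries. Of 22 genes 19 were above 0 (background 65.3%), with a median of 0.18 and 2 higher at an unadjusted p under 0.05 (background 4.8%). Without the libraries with Rn45s above 0, 13 were above 0 and 9 below with a median of 0.0274, and the median was 0.0605 with the choroid plexus level as a covariate. It was 0.0945 without HFD library 2 and 0.0993 without HFD-IF library 3. Plin4, a lipid droplet coat protein, measured 1.43, 1.97, 1.24 and 2.05 FPKM in HFD and 2.01, 3.39, 2.45 and 3.57 FPKM in HFD-IF, with 1 fasted library inside the HFD range. Mt1, a metallothionein that binds zinc, measured 254, 245, 246 and 183 FPKM in HFD and 253, 299, 284 and 336 FPKM in HFD-IF. Their log2 changes were 0.52 ± 0.15 and 0.34 ± 0.12 (limma, adjusted p = 0.515 and 0.59). Without HFD-IF library 0, 13 of the 22 were higher at an unadjusted p under 0.05, against 2 to 4 without any other single library. Over all genes 692 were higher without HFD-IF library 0, against 614 with all libraries. Fkbp5, a co-chaperone of the glucocorticoid receptor and a common readout of its activity, had 12 ± 1.12 and 13.1 ± 1.69 FPKM (0.11 ± 0.10).

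Most synaptic genes had slightly higher means, as did most genes of the table. Of 50 genes 45 were above 0 (background 65.3%) with a median of 0.09, and 5 were higher at an unadjusted p under 0.05 (background 4.8%). After rescaling by median ratio 34 were above 0, with a median of 0.04, and 1 was higher. Without the libraries with Rn45s above 0, 32 were above 0 and 1 was higher, and with the choroid plexus level as a covariate 29 were above 0 and 0 were higher. The count of 5 was 2 without HFD library 0 or HFD-IF library 3, 8 without HFD-IF library 0 and 11 without HFD library 3. Over all genes 457, 466, 692 and 965 were higher in these settings, against 614 with all libraries. The 17 genes of vesicles and release were all above 0 before rescaling. Grin1, the obligate NMDA receptor subunit, measured 111, 115, 110 and 103 FPKM in HFD and 113, 126, 135 and 129 FPKM in HFD-IF (0.19 ± 0.06; limma, adjusted p = 0.563). Vamp2 of synaptic vesicles had 352 ± 18.4 and 401 ± 40.1 FPKM, and Dlgap1 of the postsynaptic density 112 ± 9.07 and 127 ± 6.7 FPKM. For all 3 the groups overlapped.

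Activity-dependent genes overlapped between the groups. Of 28 immediate early genes 0 had an unadjusted p under 0.05, and their median was 0.04, as over all genes. Fos measured 7.85, 9.17, 7.27 and 6.57 FPKM in HFD and 5.78, 9.17, 7.91 and 8.87 FPKM in HFD-IF (0.03 ± 0.13). Egr1 had 57.6 ± 8.91 and 69.0 ± 12.8 FPKM. Without HFD-IF library 0, 6 of the 28 were higher at an unadjusted p under 0.05, with a median of 0.14. In that setting 692 of all genes were higher at that p, against 614 with all libraries. Bdnf, the neurotrophin most often studied in fasting, measured 8.74, 15, 9.42 and 9.26 FPKM in HFD and 10.2, 11.2, 8.27 and 11.1 FPKM in HFD-IF. Only HFD library 1 stood apart, and the log2 change was -0.03 ± 0.15. Among 18 genes of neurotrophins and CREB signalling 1 was higher at an unadjusted p under 0.05 (background 4.8%). Nmb, the peptide neuromedin B, was the lowest of 25 neuropeptides and receptors, with 2.76 ± 0.786 and 1.44 ± 0.572 FPKM (-0.63 ± 0.15; limma, adjusted p = 0.342).

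Genes of myelin proteins had higher means, and none passed the adjusted threshold. All 9 were above 0 (background 65.3%), with a median of 0.23, and 3 were higher at an unadjusted p under 0.05 (background 4.8%). Mal, a myelin proteolipid, measured 48.8, 39.8, 50.6 and 40.8 FPKM in HFD and 59.7, 63.9, 61.0 and 55.0 FPKM in HFD-IF, and Mobp had 62.9 ± 3.05 and 80.4 ± 7.61 FPKM. Neither overlapped (0.41 ± 0.12 and 0.35 ± 0.11; limma, adjusted p = 0.523 and 0.563). The wider list of 26 oligodendrocyte genes had a median of 0.13. At an unadjusted p under 0.05, 5 were higher (background 4.8%) and 1 lower (background 2.64%). The 1 lower was Enpp2, a lysophospholipase that the choroid plexus also makes in quantity, at 219, 30.6, 174 and 169 FPKM in HFD. On chow the 26 genes had a median of -0.15 with fasting. The count of 5 higher was 2 without HFD library 0, HFD library 1 or HFD-IF library 0, and 3 without HFD-IF library 1. Over all genes 457, 847, 692 and 519 were higher in these settings, against 614 with all libraries. The astrocyte list (17 genes) had a median of 0.04, with 0 members at an unadjusted p under 0.05.

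Most ribosomal and respiratory chain genes had lower means, and these counts depended on single libraries. Of 60 cytosolic ribosomal protein genes 58 were below 0 (background 34.7%), with a median of -0.11 and 7 lower at an unadjusted p under 0.05 (background 2.64%), and of 60 respiratory chain genes 45 were below 0, with a median of -0.09 and 6 lower. Rps16 of the small subunit measured 237, 222, 229 and 221 FPKM in HFD and 210, 202, 158 and 197 FPKM in HFD-IF. Uqcr10 of complex III had 161 ± 18 and 127 ± 21 FPKM. Without HFD-IF library 2, which was lowest for Rps16, the ribosomal median was -0.01 with 1 gene lower, and the respiratory chain list had 29 of 60 genes above 0, with 3 lower. Without HFD-IF library 3 the counts were 17 and 18, and without HFD libraries 0 and 2 they were 2 and 4 for ribosomal genes and 2 and 3 for the respiratory chain. Ribosomal genes also had 16 lower without HFD library 3 and 11 without HFD-IF library 0. Over all genes the lower counts were 271, 318 and 362 without HFD libraries 0, 2 and 3. They were 382, 256 and 426 without HFD-IF libraries 0, 2 and 3, against 338 with all libraries. Without the libraries with Rn45s above 0 both medians were above 0 (0.04 and 0.05). Mitochondrially encoded genes were not analysed here.

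Genes of succinate metabolism, the subject of the study's title, showed little difference. Succinate dehydrogenase oxidises succinate in the citric acid cycle and feeds electrons to the respiratory chain. Its catalytic subunit Sdha measured 89.8, 92.4, 88.5 and 108 FPKM in HFD and 101, 97.3, 92.0 and 109 FPKM in HFD-IF. Sdha, Sdhb, Sdhc and Sdhd had log2 changes of 0.08 ± 0.08, -0.04 ± 0.08, -0.06 ± 0.09 and -0.03 ± 0.09 (limma, adjusted p = 0.816, 0.898, 0.88 and 0.944), and the signs of the last 3 turned without HFD-IF library 2. The succinate receptor Sucnr1 was listed at 0 in the 4 HFD libraries and in 3 of the HFD-IF libraries, with 0.0579 FPKM in the other. The median of the 17 kept genes of the list was 0.00. At an unadjusted p under 0.05, 1 was lower (background 2.64%) and 1 higher (background 4.8%). The lower one was Slc13a3, a plasma membrane transporter of succinate and other dicarboxylates (chromosome 2, 165405028 to 165473230). It measured 3.79, 3.59, 3.36 and 3.65 FPKM in HFD and 2.14, 2.18, 3.1 and 2.74 FPKM in HFD-IF, without overlap (-0.38 ± 0.12; limma, adjusted p = 0.554). The higher one was Abat, the GABA transaminase whose product can enter the cycle as succinate, with 34.0 ± 2.44 and 38.5 ± 2.35 FPKM (0.18 ± 0.07; limma, adjusted p = 0.61). Slc13a5, the sodium-coupled citrate carrier, was at 0.788 to 0.927 FPKM in HFD and at 1.01 to 1.34 FPKM in HFD-IF without overlap, with an unadjusted p of 0.0865 in limma.

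Other fuel genes differed little. Of 7 kept ketone body genes 0 had an unadjusted p under 0.05. The monocarboxylate transporter gene Slc16a1, whose product carries ketone bodies and lactate, had 8.91 ± 1.35 and 9.61 ± 1.34 FPKM. In fatty acid oxidation 3 of 27 genes were lower (background 2.64%) and 1 higher (background 4.8%) at an unadjusted p under 0.05. The lower ones included Acads, which acts on short chains (1.83 ± 0.138 and 1.27 ± 0.388 FPKM), and Acaa2, the thiolase of the last step (6.06 ± 0.694 and 4.53 ± 1.04 FPKM). The count of 3 lower was 2 to 5 with single libraries left out, with 5 without HFD library 3. It was 5 after rescaling by median ratio. It was 1 without the libraries with Rn45s above 0, and 0 with the choroid plexus level as a covariate. Cpt1a, the gate to mitochondrial oxidation, had a log2 change of -0.09 ± 0.09.

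Fasting on chow used other animals and other libraries, so it can be set beside fasting on high-fat diet. In limma 2 genes rose with fasting on chow (0.0156% of 12798), Dbp (0.78 ± 0.10, adjusted p = 0.00798) and Cirbp (0.94 ± 0.14, adjusted p = 0.0232), and the same genes had 0.26 ± 0.09 and 0.54 ± 0.13 on high-fat diet. Rbm3 had 1.1 ± 0.19 on chow against 0.50 ± 0.18, Etnppl 0.88 ± 0.14 against 0.65 ± 0.13, Plin4 0.80 ± 0.16 against 0.52 ± 0.15, and Calr -0.47 ± 0.11 against -0.24 ± 0.10. These genes had the same sign on both diets. Ptgds had 0.25 ± 0.16 on chow against -0.84 ± 0.15, Slc6a20a, an imino acid transporter, 0.38 ± 0.14 against -0.44 ± 0.13, Rab26os -0.50 ± 0.24 against 0.93 ± 0.22, and Mthfd2 of mitochondrial folate metabolism -0.55 ± 0.11 against 0.15 ± 0.10. These 4 and Hspb8 (0.02 ± 0.11 against -0.64 ± 0.10) had the smallest p of the difference between the diets. None passed, with an adjusted p of 0.985 in limma for each, 0 of 12798 genes called and 429 at an unadjusted p under 0.05 (3.35%).

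**Figure D5:**
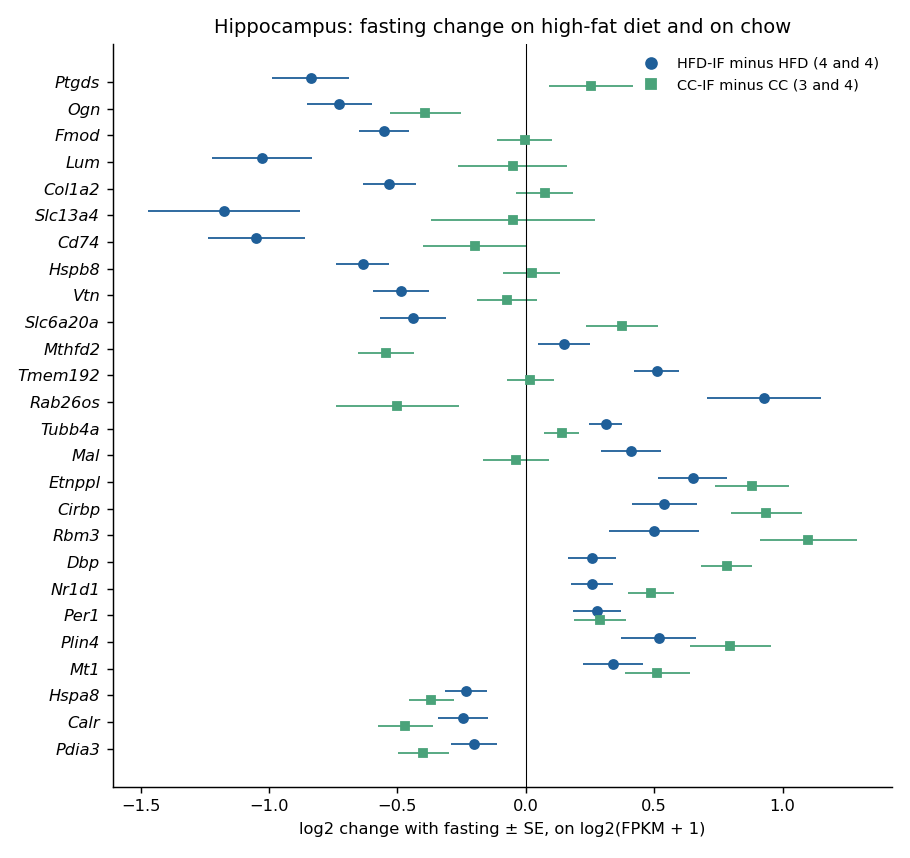
Log2 change with fasting (horizontal axis) ± SE for 26 genes in hippocampus, on high-fat diet (blue circles, 4 and 4 libraries) and on chow (green squares, 3 and 4 libraries). Cirbp, Rbm3, Dbp and Etnppl lie to the right of 0 on both diets, and Ptgds and Slc6a20a lie on opposite sides.

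The same comparison in liver, with 4 HFD and 2 HFD-IF libraries, differed from that in hippocampus for 83 of 9913 genes kept in both tissues (0.837%), 56 with a higher and 27 with a lower change in hippocampus (limma, adjusted p under 0.05). Genes of cholesterol synthesis and uptake held 17 of the 83. The 24 such genes kept in both tissues had a median log2 change of -0.10 in hippocampus and -1.71 in liver, where 21 fell (background 2.13%). In hippocampus 2 were lower at an unadjusted p under 0.05 (background 2.64%). Dhcr7, which makes cholesterol in the last step (chromosome 7, 143823145 to 143848410), measured 6.72, 7.03, 8.31 and 7.93 FPKM in HFD and 6.92, 7.5, 6.6 and 7.46 FPKM in HFD-IF hippocampus. In liver it measured 45.3 to 62.9 FPKM in HFD and 6.49 and 8.95 FPKM in HFD-IF. The difference of the changes was 2.58 ± 0.18 (limma, adjusted p = 3.92e-06). Sqle, squalene epoxidase, had -0.22 ± 0.10 in hippocampus and -3.64 ± 0.25 in liver, and Idi1, which makes an isoprenoid unit, -0.22 ± 0.10 and -3.48 ± 0.37. The differences were 3.42 and 3.25 (limma, adjusted p = 0.000105 and 0.00253). Nsdhl and Mvk of the same pathway and Paox, a polyamine oxidase, differed as well, by 2.67, 1.91 and 1.65. Igfbp2 was lower in hippocampus (-1.16) and rose in liver (1.77, with 1.61% of genes called higher there), a difference of -2.92 ± 0.43 (limma, adjusted p = 0.00253). The count of 83 was 927 without HFD-IF liver library 0, which leaves 1 fasted liver, and 53 without HFD hippocampus library 2.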

How the data were processed

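Polyadenylated RNA of liver and hippocampus was sequenced, and the authors deposited 1 table of FPKM per gene and library. The submitters' processing notes list Bowtie2 2.3.5.1 and TopHat2 2.1.1 among the tools, beside Trimmomatic 0.39 and FastQC 0.11.9, and name GRCm38 (mm10) as genome. Which software produced the FPKM values, from which annotation and with what scaling, is not given in the sources used here. Columns were matched to groups by name. Their index from 0 cannot be tied to the numbered samples, and 0 columns were without a group.

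Of 12867 genes with a mean of at least 1 FPKM over the 8 libraries, 69 small RNA genes were left out. Values were taken as log2(FPKM + 1) and fitted with limma 3.58.1 (R 4.3.3) with an intensity trend, over the 15 hippocampal libraries of 4 groups, with Benjamini-Hochberg adjustment and a threshold of 0.05. The difference between diets was the interaction of fasting and diet. The difference from liver was the interaction of fasting and tissue over the HFD and HFD-IF libraries. The fits were tested on simulated data. P-values measure the spread between the deposited samples. Tables and figures were made with matplotlib 3.10.9, numpy 2.4.6 and pandas 2.3.3 under Python 3.11.15. Depth was estimated by reading low FPKM as whole fragments, and 62.8 to 74.4% of low values came within 0.2 of a whole number of fragments (40% by chance), so it is approximate.

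Gene lists and the genes described were chosen with earlier results of these data known. The genes named were those past the threshold, the 10 higher and 10 lower with the smallest p and the 6 and 6 with the largest change among genes without overlap (leaving out predicted genes, genes with a longest transcript under 300 nt and near-identical families), up to 3 of each list by smallest p, a fixed set of 13 (1 of which is not reported here), and 5 each by the difference between diets and from liver. Ttr, Kl, H2-Aa, H2-Ab1, H2-Eb1, Arhgef5, Ciart, Col1a1 and other genes outside this rule were named after their values were seen. Gene positions are from GENCODE M21 on GRCm38, which matched 12285 of the genes, and promoters from RefSeq. Alternatives were other pseudocounts, filters, scalings and fits, libraries left out singly, and libraries with Rn45s left out. Leaving out the libraries with over 400 FPKM of choroid plexus genes, and that level as a covariate, were added after seeing the data, as was the meningeal sum without Ptgds.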

Additional observations from a re-analysis of the deposited data

Results flagged for a closer look

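In 16 of 172 groups of 4 values examined, 1 library lay far from the other 3 by Dixon's ratio at 95%, where chance alone gives about 1 in 20. Among the HFD-IF libraries, library 0 stood apart for Kcne2 (0.567 FPKM, others 0.0965 to 0.126), Ttr (320 FPKM, others 7.48 to 28.8) and the summed choroid plexus list (427 FPKM, others 48.9 to 81.2). The same library was the lowest for Gng5 (14.9 FPKM) and Etnppl (4.41 FPKM) and the highest for Dbp (16.8 FPKM). HFD-IF library 2 was the lowest for Rbm3 (31.9 FPKM), Sdhb (36.8 FPKM) and Slc6a20a (2.79 FPKM). HFD-IF library 3 was the highest for Mvk (8.58 FPKM) and for the summed ependymal list (46.9 FPKM). Among the HFD libraries, library 1 was the highest for Bdnf (15 FPKM) and Sdhb (47.7 FPKM) and the lowest for Mthfd2 (1.81 FPKM). HFD library 2 was the lowest for Etnppl (2.06 FPKM), and HFD library 3 for Mt1 (183 FPKM).

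The change with fasting on high-fat diet differed between hippocampus and liver for 10 named genes by the interaction of tissue and fasting in limma. Hippocampus minus liver was 3.42 for Sqle, 3.25 for Idi1, 2.67 for Nsdhl, 2.58 for Dhcr7, 1.91 for Mvk, 1.65 for Paox and 1.09 for Calr. It was -2.92 for Igfbp2, -2.54 for Lum and -1.31 for Fmod, on log2(FPKM + 1). The call for Lum (limma, adjusted p = 0.0441) was lost without any of 13 of the 14 libraries.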

How the results depend on the processing

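The count of 0 genes past the threshold was 2 with no filter on low values, 2 with the HFD and HFD-IF libraries alone, 1 without the libraries with Rn45s above 0, and 0 to 2 when single libraries were left out, with 2 only without HFD library 3. The count of 83 genes that differed from liver was 53 to 927 when single libraries were left out. Of 1709 values for 79 genes over 22 alternatives 1677 kept their sign and their side of the threshold, 5 passed it and 27 changed sign, and 68 genes never changed sign. With the choroid plexus level as covariate Ttr had 0.00347, Sdhc 0.0547, Fos -0.157 and Cpt1a 0.0169. Ttr is itself part of that summed level, so its value near 0 follows from the covariate and tests nothing. Without libraries high in choroid plexus genes Dhcr7 had 0.0257, Fos -0.0787 and Fkbp5 -0.00967. Without the libraries with Rn45s above 0, Sdhb had 0.02465, Sdhc 0.0842, Sdhd 0.1285 and Cpt1a 0.0433. With library weights Sdhb had 0.00934, Sdhd 0.0188 and Bdnf 0.0478, and Fos had -0.0156 after rescaling by median ratio and -0.0177 after quantile normalisation. With single libraries left out the ranges were -0.07685 to 0.0414 for Sdhb, -0.1301 to 0.01025 for Sdhc, -0.0811 to 0.0607 for Sdhd, -0.1221 to 0.002455 for Nsdhl, -0.0231 to 0.1404 for Mvk, -0.1055 to 0.1346 for Bdnf and -0.0421 to 0.1529 for Fos. The hippocampus and liver difference of Lum was -2.54 and lost its call without any of 13 of the libraries, with -1.37 without HFD-IF liver library 1, and that of Col1a2 gained one without HFD-IF liver library 0 (-3.56). The cause of these shifts was not tested. No paired analysis was possible because the columns carry an index from 0 that cannot be tied to the replicate numbers of the labels. Estimated depth of 11800000 to 20600000 fragments limits genes near 1 FPKM most.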
